A study of Mus musculus with 9 samples.

Results

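Pou3f1, Otx2, Fgf5, Zic2, Zic5, Foxd3, Sox3, Sox4 and Grhl2 are genes used to follow pluripotent cells as they leave the naive state. They were taken by symbol from expression tables of 24411 genes, and all 9 were present and passed the filter on low counts. The tables came from 9 RNA libraries of EB5 mouse embryonic stem cells, a line derived from male E14tg2a cells of strain 129Ola. In Zfp352-KO cells (3 libraries) the Zfp352 gene was deleted with the nuclease system CRISPR-Cas9. In Zfp352/Zfp353-DKO cells (3 libraries) Zfp352 and Zfp353 were both deleted. Parental cells (3 libraries) carried neither deletion. All 3 genotypes share the blasticidin resistance cassette that EB5 carries at its Oct3/4 locus. They were grown on gelatin with fetal calf serum and leukemia inhibitory factor. The labels do not say whether each edited genotype is 1 clone, nor whether its 3 libraries stem from different cultures. The p-values therefore reflect library-to-library spread alone, and that spread may be technical.

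Embryonic stem cells in serum and leukemia inhibitory factor are largely naive, with a variable minority of cells in later states. On the way to the epiblast of the implanted embryo, cells pass through a formative state, in which naive factors decline and OTX2, POU3F1 and the ligand FGF5 appear. OTX2 redirects the core factor OCT4 to new enhancers, GRHL2 keeps epithelial genes active, and ZIC, FOXD and SOX proteins act at enhancers that change use during this step. In a bulk library, fewer cells of a state and less RNA per cell cannot be told apart.

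Most of these genes belong to families with a conserved DNA-binding domain, so it was first checked whether a read of 75 bases can tell a gene from its relatives. Below are, for 4 pairs of relatives, the coding stretches of 75 bases that differ least, without gaps, between the genes of the pair. Pairs were taken for the 3 called genes and for Sox3 with its abundant relative Sox2. They show how little sequence separates the pairs, and capitals mark the bases that differ. Pou3f1 (GRCm38, chr4:124658550-124658624, plus strand) and Pou3f2 (chr4:22487157-22487231, minus strand) differed at 4 bases. Zic2 (chr14:122476657-122476731, plus strand) and Zic5 (chr14:122463908-122463982, minus strand) also differed at 4. Sox3 (chrX:60892918-60892992, minus strand) and Sox2 (chr3:34650551-34650625, plus strand) differed at 5. Grhl2 (chr15:37270711-37270785, plus strand) and Grhl1 (chr12:24576026-24576100, plus strand) differed at 7.
Pou3f1: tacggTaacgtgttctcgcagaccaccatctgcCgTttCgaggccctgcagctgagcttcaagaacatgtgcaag
Pou3f2: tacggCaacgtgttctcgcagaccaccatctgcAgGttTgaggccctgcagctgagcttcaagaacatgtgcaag
Zic2: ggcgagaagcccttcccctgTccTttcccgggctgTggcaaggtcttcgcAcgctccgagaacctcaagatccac
Zic5: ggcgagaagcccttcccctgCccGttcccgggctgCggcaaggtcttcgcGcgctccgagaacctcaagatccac
Sox3: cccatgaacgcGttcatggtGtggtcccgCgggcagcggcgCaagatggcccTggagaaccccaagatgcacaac
Sox2: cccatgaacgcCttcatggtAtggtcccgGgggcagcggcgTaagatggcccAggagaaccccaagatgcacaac
Grhl2: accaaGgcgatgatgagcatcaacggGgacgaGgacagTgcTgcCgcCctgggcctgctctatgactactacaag
Grhl1: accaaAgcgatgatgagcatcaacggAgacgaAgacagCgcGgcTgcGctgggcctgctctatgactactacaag

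The smallest difference of all was between Foxd3 and its relative Foxd4, at 1 of 75 bases. No run of 75 bases in the transcripts of Pou3f1, Otx2, Fgf5, Zic2, Sox3, Sox4 or Grhl2 occurred in a transcript of another gene of the GENCODE annotation. Of the runs in Zic5, 4.16% also occurred in the transcript of Gm12241, and of those in Foxd3 0.667% occurred in Gm23366, which lies inside Foxd3. The runs came from GENCODE transcripts, whereas reads were counted on RefSeq transcripts of other lengths. Zic2 gave 2366 runs against a counted length of 2967 bases, and Zic5 gave 4693 against 2383. Counted bases that the GENCODE transcripts lack were not checked. All 81 expected counts of the 9 genes were whole within 0.005. Expected counts become fractional where reads are divided between counted genes. Gm23366 is not among the counted genes, so reads it shares with Foxd3 would not show in this way. Antisense transcripts overlap Grhl2 (Gm16136 and Gm16137), and the noncoding gene Gm26735 overlaps Sox4 on the other strand. The sources used here do not say whether counting used the strand, so reads of these transcripts and of Grhl2 and Sox4 may not have been told apart.

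Libraries held 16599004 to 22044820 expected counts. Zfp352, read as a check of the labels, had 3 to 10 expected counts per library in Zfp352-KO cells and 1 to 3 in Zfp352/Zfp353-DKO cells, against 41 to 52 in Parental cells. Stem cell genes were high in every genotype. Pou5f1, which encodes OCT4, averaged 1130 TPM in Zfp352-KO, 1140 TPM in Zfp352/Zfp353-DKO and 1160 TPM in Parental cells, and the naive marker Zfp42 averaged 1080, 1080 and 1070 TPM in the same order. TPM, a share of all transcripts in a library scaled by transcript length, lets genes be compared with each other. Libraries also differed in how values varied with transcript length. Across 14249 genes, the rank correlation (rho) of length with a library's deviation in log2 CPM (counts scaled to library size) ran from -0.0656 to 0.394 in Zfp352-KO, from -0.128 to 0.362 in Zfp352/Zfp353-DKO and from -0.402 to -0.0825 in Parental libraries. These are descriptions across genes, and values with that trend removed are given below for the called members and for Otx2.

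In all genotypes, Otx2 and Zic2 were the most abundant of the 9 transcripts and Sox3 and Fgf5 the least. Otx2 averaged 53.9 ± 5.20 TPM in Zfp352-KO, 55.8 ± 2.58 TPM in Zfp352/Zfp353-DKO and 47.4 ± 1.04 TPM in Parental cells (SD, n = 3 each). Zic2 followed, with no overlap with Otx2 in any genotype. The middle of the order changed with genotype. Pou3f1 ranked 3 of 9 in Parental cells, where its libraries overlapped those of Zic5, Sox4 and Grhl2, at ranks 4 to 6. It ranked 7 of 9 in both edited genotypes, below Zic5, Sox4, Grhl2 and Foxd3. In Zfp352-KO cells its libraries still overlapped those of Foxd3, the next gene up, whereas in Zfp352/Zfp353-DKO cells its highest library, at 10.41 TPM, lay under the lowest library of Grhl2, the next gene up, at 11.99 TPM. Sox3 averaged 2.31 ± 0.130, 2.39 ± 0.748 and 2.58 ± 0.509 TPM in Zfp352-KO, Zfp352/Zfp353-DKO and Parental cells, and Fgf5 averaged 0.943 ± 0.313, 0.777 ± 0.240 and 1.20 ± 0.329 TPM in the same order (SD, n = 3 each).

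**Figure D1:**
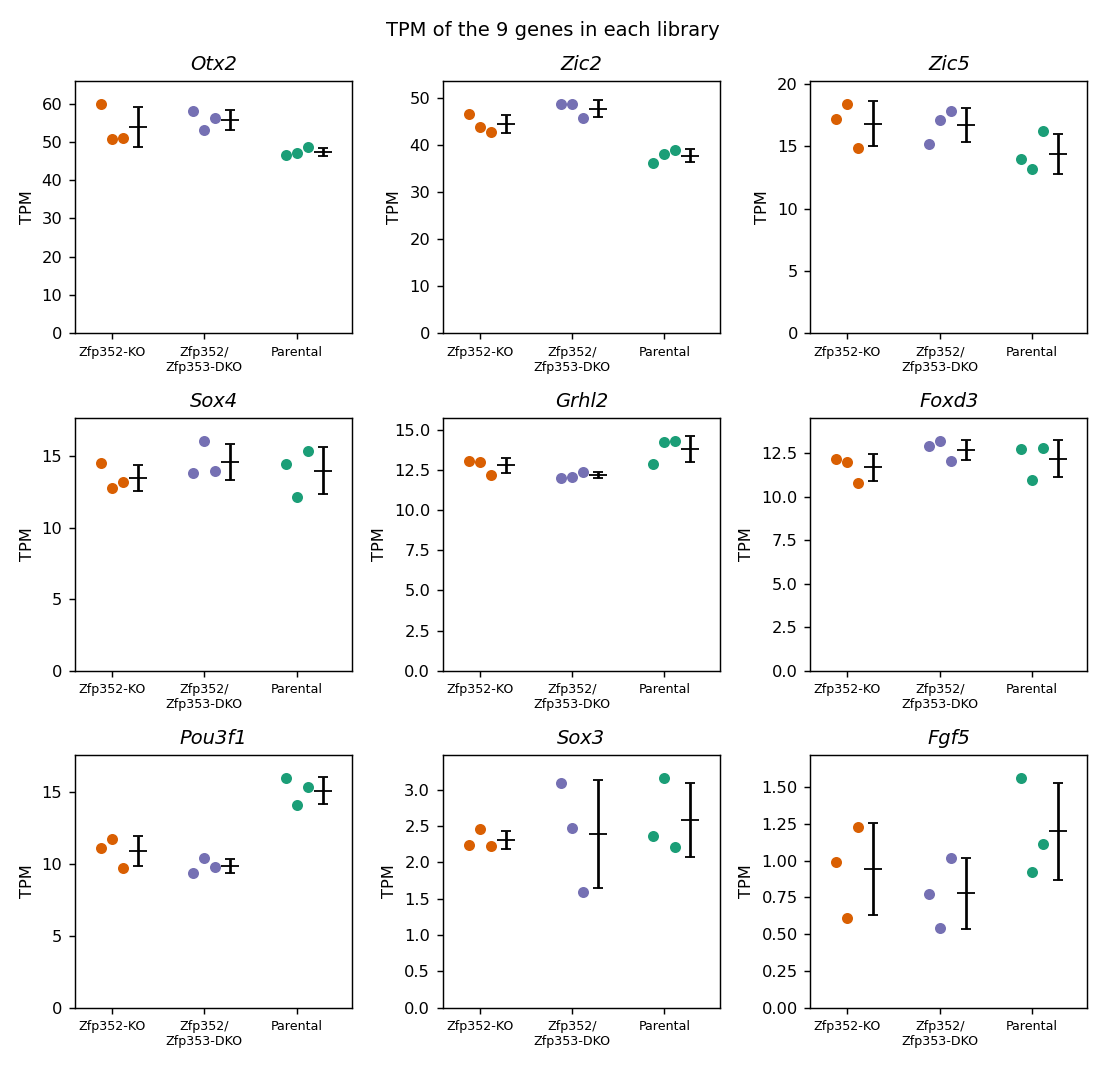
TPM of each gene (y axes, starting at 0) in each of the 3 libraries of Zfp352-KO, Zfp352/Zfp353-DKO and Parental cells, with points for libraries and a bar with whiskers for the mean and SD. The Pou3f1 points of both edited genotypes, 9.4 to 11.74 TPM, lie under those of Parental cells, 14.07 to 15.96 TPM, and the Zic2 and Otx2 points lie above.

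Zfp352-KO cells were set against Parental cells to see which of these transcripts differ when Zfp352 alone is deleted. Pou3f1 fell, Zic2 rose slightly, and no other of the 9 genes passed the test. Thus 2 of 9 were called by the quasi-likelihood test of edgeR, at a threshold of 0.05 on p-values adjusted by the method of Benjamini and Hochberg, beside 7.06% of all 14300 genes tested. The 1 gene called higher stood beside 3.43% of all genes and the 1 called lower beside 3.64%. Libraries of the genotypes did not overlap in CPM for 4 of the 9 genes, beside 27.4% of all genes tested. The median log2 fold change of the 9 genes was -0.11, and that of all genes tested was -0.009.

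Pou3f1 encodes a POU-domain transcription factor also called OCT6, a marker of the formative epiblast. It had 11.14, 11.74 and 9.73 TPM in Zfp352-KO libraries, against 15.96, 14.07 and 15.34 TPM in Parental libraries. Every Zfp352-KO library lay below every Parental library. The log2 fold change was -0.52 ± 0.08 (SE; edgeR adjusted p = 0.00057), a level 0.696 times that of Parental cells (95% interval 0.622 to 0.78). The call held under all 22 alternative settings, with log2 fold changes from -0.58 to -0.40. The value of -0.40 came from the fit without the length and GC trend (edgeR adjusted p = 0.0021).

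Zic2, a zinc finger transcription factor that occupies enhancers in embryonic stem cells, had 46.68, 43.89 and 42.86 TPM in Zfp352-KO libraries, against 36.26, 38.11 and 38.92 TPM in Parental libraries. The genotypes did not overlap, but the difference was small, with a log2 fold change of 0.19 ± 0.06 (SE; edgeR adjusted p = 0.045), or 1.14-fold (95% interval 1.05 to 1.24). It stayed positive under all 22 settings and past the threshold in 13. The call was lost without Parental library 1 (edgeR adjusted p = 0.20), 2 (0.069) or 3 (0.067), without Zfp352-KO library 1 (0.18) or 2 (0.094), and without Zfp352/Zfp353-DKO library 2 (0.053), with scaling by library totals only (0.055) and with the replicate number as a block (0.074). With the length and GC trend removed, Zic2 was at 0.28 (edgeR adjusted p = 0.00066).

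Zic5, the divergently transcribed neighbour of Zic2, had 17.19, 18.40 and 14.85 TPM in Zfp352-KO libraries, against 13.97, 13.15 and 16.21 TPM in Parental libraries. The genotypes overlapped, and the log2 fold change of 0.18 ± 0.09 (SE; 95% interval 0.00 to 0.35) did not pass (edgeR adjusted p = 0.22). The interval takes in the value of Zic2. Otx2, the homeobox factor that drives the exit from the naive state, had 59.88, 50.66 and 51.09 TPM in Zfp352-KO libraries, against 46.57, 47.03 and 48.55 TPM in Parental libraries. The libraries did not overlap, yet the log2 fold change of 0.13 ± 0.06 (SE) was not called (edgeR adjusted p = 0.20).

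Grhl2, which encodes a Grainyhead-family activator of epithelial genes, had 13.10, 12.98 and 12.21 TPM in Zfp352-KO libraries, against 12.88, 14.23 and 14.31 TPM in Parental libraries. These overlapped in TPM, and the log2 fold change was -0.16 ± 0.06 (SE; edgeR adjusted p = 0.11). Fgf5, the secreted growth factor whose transcript is a classic mark of the early post-implantation epiblast, rested on 21, 17 and 33 expected counts in Zfp352-KO libraries, against 45, 26 and 28 in Parental libraries. At that depth its 95% interval on the log2 scale was wide, from -1.02 to 0.23, a range that takes in 0. The HMG-box gene Sox3, a close relative of Sox2 in early neural and germ cells, had an interval of -0.67 to 0.26. Intervals were narrower for Foxd3 (-0.29 to 0.07), a forkhead factor needed for the epiblast, and for Sox4 (-0.28 to 0.08), an HMG-box factor of progenitor cells. EdgeR adjusted p-values of these 4 genes ran from 0.45 to 0.62.

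Zfp352/Zfp353-DKO cells, which lack both genes, were compared with Parental cells in the same fit. Pou3f1 fell, Zic2 rose and Grhl2 fell slightly, so that 3 of 9 genes were called, beside 8.47% of all genes tested. Of all genes, 3.65% were called higher, beside 1 of the 9, and 4.82% lower, beside 2 of the 9. The same Parental libraries served here as in the comparison above, so the comparisons are not independent of each other. Libraries did not overlap in CPM for 4 of the 9 genes, beside 28.1% of all genes tested, and the median log2 fold change of the 9 was 0.03, against 0.000 for all genes tested.

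Pou3f1 had 9.40, 10.41 and 9.76 TPM in Zfp352/Zfp353-DKO libraries, against the 14.07 to 15.96 TPM of Parental libraries. The log2 fold change was -0.66 ± 0.08 (SE; edgeR adjusted p = 2.4e-05), a level 0.634 times that of Parental cells (95% interval 0.565 to 0.711). All 22 alternative settings called it, with values from -0.70 to -0.57, and without the length and GC trend it was at -0.58 (edgeR adjusted p = 1.5e-05). Zic2 had 48.79, 48.75 and 45.71 TPM in Zfp352/Zfp353-DKO libraries, against 36.26 to 38.92 TPM in Parental libraries, a log2 fold change of 0.30 ± 0.05 (SE; edgeR adjusted p = 0.0019), or 1.23-fold (95% interval 1.14 to 1.33). It too was called under all 22 settings, with values from 0.27 to 0.36, the highest of them with the length and GC trend removed (edgeR adjusted p = 1e-05).

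Because a ratio within a library does not depend on how libraries are scaled, Pou3f1 TPM was also divided by Zic2 TPM. Zfp352-KO libraries had ratios of 0.239, 0.267 and 0.227, and Zfp352/Zfp353-DKO libraries had 0.193, 0.214 and 0.214, against 0.440, 0.369 and 0.394 in Parental libraries. No edited library reached the lowest Parental ratio. The pair was chosen for its opposite calls, so the ratio is a description. Its exact permutation test against Parental libraries (p = 0.1 for either edited genotype) adds no support. Single genes were tested on log2(TPM + 0.1) by exact permutation, two-sided, which with 3 against 3 libraries cannot go below 0.1. This exact test returned p = 0.1 for Pou3f1, Zic2 and Otx2 in both comparisons and for Grhl2 in Zfp352/Zfp353-DKO cells only.

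Grhl2 had 11.99, 12.09 and 12.37 TPM in Zfp352/Zfp353-DKO libraries, against 12.88, 14.23 and 14.31 TPM in Parental libraries. The genotypes did not overlap, and the log2 fold change was -0.22 ± 0.06 (SE; edgeR adjusted p = 0.026), a level 0.856 times that of Parental cells (95% interval 0.785 to 0.934). The value stayed negative under all 22 settings and past the threshold in 14. The call was lost in DESeq2 (adjusted p = 0.065), in limma-trend on log2(TPM + 1) (adjusted p = 0.18), and in edgeR without Parental library 2 (adjusted p = 0.15) or 3 (0.058) or without Zfp352/Zfp353-DKO library 2 (0.082) or 3 (0.071). Without the length and GC trend Grhl2 was at -0.24 (edgeR adjusted p = 0.0087).

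Otx2 had 58.11, 52.99 and 56.17 TPM in Zfp352/Zfp353-DKO libraries, all above the 46.57 to 48.55 TPM of Parental libraries. Its log2 fold change of 0.19 ± 0.06 (SE) lay just outside the threshold (edgeR adjusted p = 0.055). It was called in 6 of 22 settings, among them the fit with the length and GC trend removed, where it was 0.22 (edgeR adjusted p = 0.0077). Zic5 had 15.18, 17.12 and 17.81 TPM in Zfp352/Zfp353-DKO libraries and overlapped with the 13.15 to 16.21 TPM of Parental libraries (0.17 ± 0.09 on the log2 scale, SE; edgeR adjusted p = 0.23). Fgf5, with 21, 14 and 24 expected counts in Zfp352/Zfp353-DKO libraries against 45, 26 and 28 in Parental libraries, had a log2 fold change of -0.67 ± 0.31 (SE; edgeR adjusted p = 0.19). Its libraries overlapped only through the highest Zfp352/Zfp353-DKO value, 1.02 TPM, and the lowest Parental value, 0.92 TPM. Foxd3 and Sox4 were both at 0.03, each with a 95% interval of -0.15 to 0.20, and Sox3 was at -0.14 with an interval of -0.60 to 0.32. For Foxd3 and Sox4 these intervals leave out changes as large as those of Pou3f1 and Zic2.

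**Figure D2:**
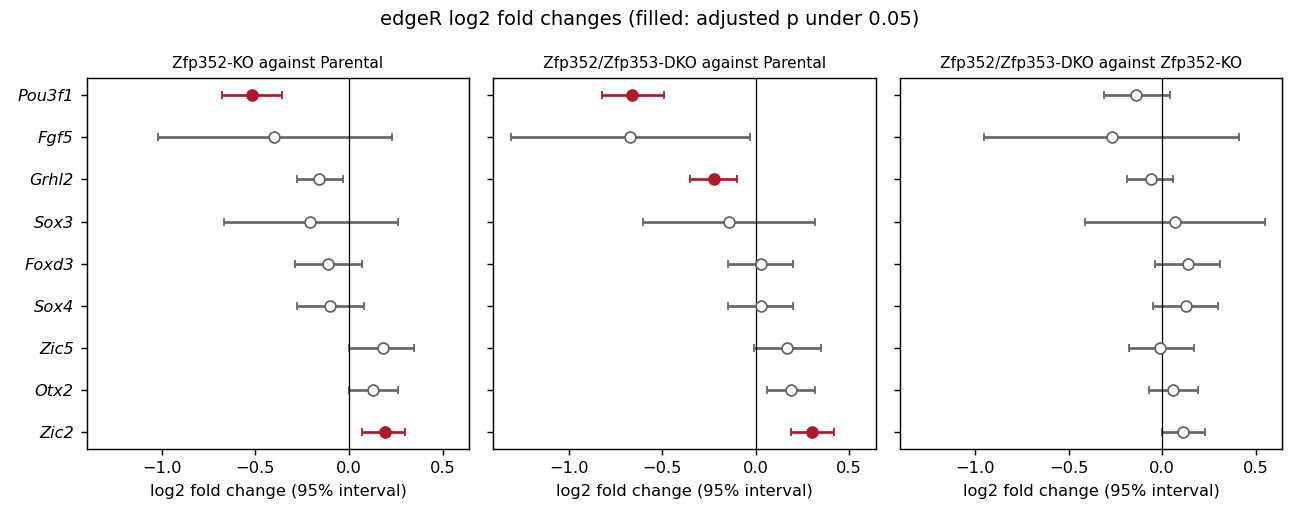
Log2 fold change (x axis, edgeR) of each gene with its 95% interval in the 3 comparisons, filled where the adjusted p was under 0.05. Pou3f1 is filled at -0.52 and -0.66 against Parental cells, Zic2 at 0.19 and 0.30, and Grhl2 at -0.22, while no gene is filled between Zfp352/Zfp353-DKO and Zfp352-KO cells.

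The comparison of Zfp352/Zfp353-DKO with Zfp352-KO cells asked whether the edited genotypes differ from each other. None of the 9 genes was called by edgeR, beside 0.105% of all genes tested (0.014% higher and 0.0909% lower), and 0 of the 9 had an unadjusted p under 0.05. Libraries did not overlap in CPM for 1 of the 9, Grhl2, beside 11.1% of all genes tested. DESeq2 and limma-trend on log2(TPM + 1) each called 0 as well. The log2 fold change was -0.14 for Pou3f1 (95% interval -0.31 to 0.04), 0.11 for Zic2 (0.00 to 0.23), 0.06 for Otx2 (-0.07 to 0.19) and -0.06 for Grhl2 (-0.19 to 0.06). For Fgf5 the interval was wide, -0.95 to 0.41. An effect called in 1 edited genotype only, as for Grhl2, was therefore not shown to differ between them.

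**Figure D3:**
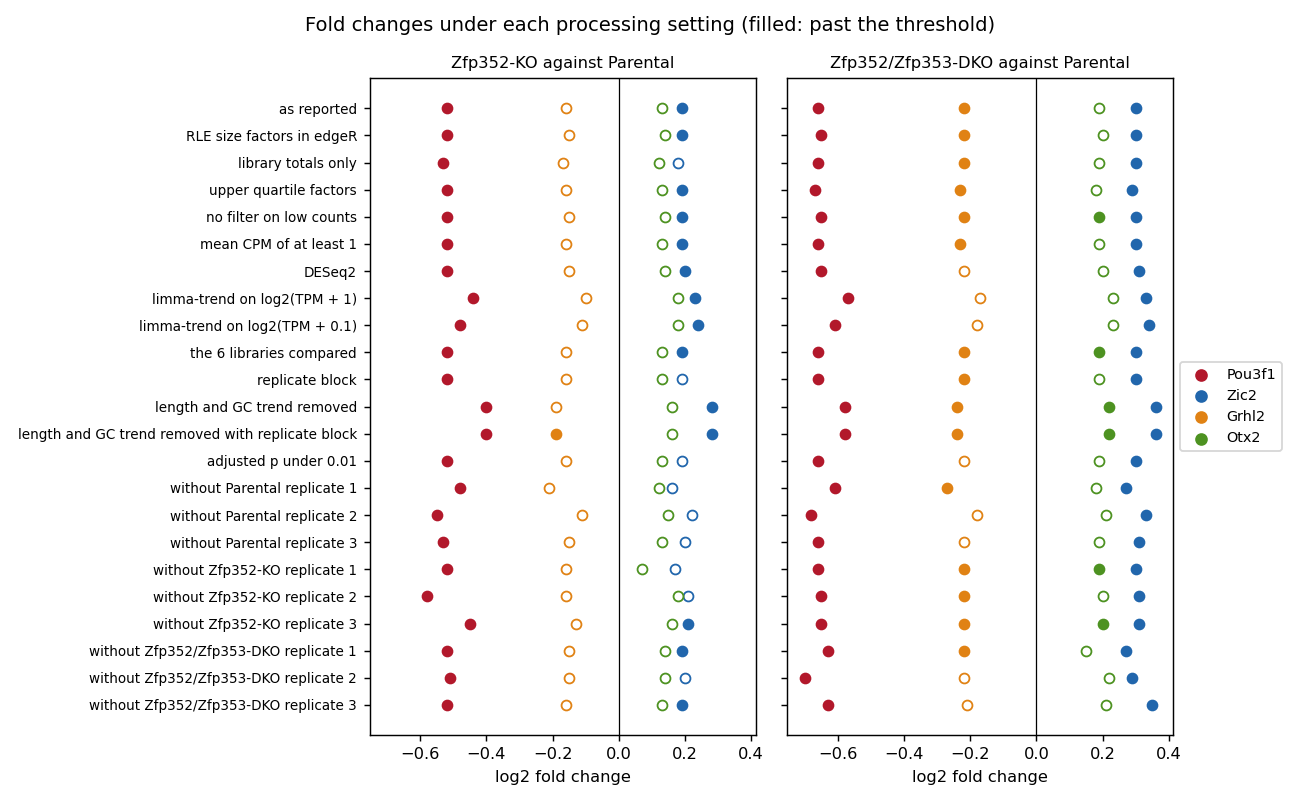
Log2 fold change (x axis) of Pou3f1, Zic2, Grhl2 and Otx2 against Parental cells as reported and under the 22 alternative settings (rows), filled where the setting's threshold was passed. Pou3f1 is filled in every row of both panels, and Zic2 in every row for Zfp352/Zfp353-DKO cells but in part of the rows for Zfp352-KO cells.

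Zic5 and Zic2 lie on chromosome 14 with 9725 bases between them, Zic5 at 122459160 to 122465658 on the minus strand and Zic2 at 122475384 to 122480328 on the plus strand (GRCm38). The noncoding gene 2610035F20Rik lies between them on the minus strand, with 184 bases between its start and that of Zic2. It averaged 5.24 ± 0.646 TPM in Zfp352-KO, 4.68 ± 0.252 TPM in Zfp352/Zfp353-DKO and 4.61 ± 1.08 TPM in Parental cells (SD, n = 3 each). Its log2 fold change against Parental cells was 0.13 (95% interval -0.25 to 0.51) in Zfp352-KO and -0.02 (-0.40 to 0.37) in Zfp352/Zfp353-DKO cells, and neither was called. Pou3f1 and Foxd3 both lie on chromosome 4, at 124657646 to 124660655 and at 99656299 to 99658671, and Sox4 lies on chromosome 13, Grhl2 on 15, Otx2 on 14, Fgf5 on 5 and Sox3 on X.

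Relatives of the 9 genes were looked at next, since a relative can stand in for a lost factor. Of 19 relatives 8 passed the filter on low counts. In Zfp352-KO cells 2 rose and 1 fell, beside 7.06% of all genes called, and in Zfp352/Zfp353-DKO cells 2 rose and 1 fell, beside 8.47%. Sox11, an SRY-box factor of the same group as Sox4, was at -0.27 ± 0.07 (SE; edgeR adjusted p = 0.028) in Zfp352-KO and at -0.37 ± 0.07 (0.0023) in Zfp352/Zfp353-DKO cells. Fgf4, the ligand that drives naive cells toward differentiation, was at 0.16 ± 0.05 (0.044) and 0.20 ± 0.05 (0.0085) in the same order. Grhl3 was called higher in Zfp352-KO cells (0.20 ± 0.06, edgeR adjusted p = 0.041), and Sox2 in Zfp352/Zfp353-DKO cells (0.19 ± 0.04, edgeR adjusted p = 0.011). The relatives of Pou3f1 were near absent. Pou3f4 had the highest mean among them, 0.293 TPM in Zfp352-KO, 0.167 TPM in Zfp352/Zfp353-DKO and 0.140 TPM in Parental cells, and Pou3f2 and Pou3f3 averaged at most 0.143 TPM in any genotype. In Zfp352-KO cells no relative was called without Parental library 1 or 2, without Zfp352-KO library 1 or 2, or with the replicate number as a block.

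Of 20 other genes linked to the formative or primed state, 7 fell and 1 rose in Zfp352-KO cells, and 8 fell and 1 rose in Zfp352/Zfp353-DKO cells. Of all genes tested, 3.64% were called lower and 3.43% higher in Zfp352-KO cells, and 4.82% and 3.65% in Zfp352/Zfp353-DKO cells. This list and those below were chosen with earlier results of these data known, so their counts are descriptions. The median log2 fold change of the 20 genes was -0.10 and -0.17 in the same order, against -0.009 and 0.000 for all genes tested. In Zfp352-KO cells the lower genes included Tcf15 (-0.43 ± 0.07, SE), a helix-loop-helix factor of cells primed to leave the naive state, Pim2 (-0.32 ± 0.06), a kinase gene, and Lef1 (-0.51 ± 0.10), a transcriptional partner of beta-catenin. In Zfp352/Zfp353-DKO cells they included Pim2 (-0.52 ± 0.06), the neural cadherin gene Cdh2 (-0.50 ± 0.08), Sox11 and Tead2 (-0.25 ± 0.05), a partner of YAP. Zfp281, a zinc finger factor that acts at the exit from the naive state, was the higher gene in both, at 0.24 ± 0.06 in cells without Zfp352 and 0.27 ± 0.06 in cells without both genes. The edgeR adjusted p-values of these changes ran from 3.5e-05 to 0.014. Lef1 was also called lower in Zfp352/Zfp353-DKO cells (-0.37 ± 0.10, edgeR adjusted p = 0.032), and Tead2 in Zfp352-KO cells (-0.16 ± 0.05, edgeR adjusted p = 0.048). Tcf15 was not called in Zfp352/Zfp353-DKO cells (-0.16 ± 0.07, edgeR adjusted p = 0.16), nor Cdh2 in Zfp352-KO cells (-0.17 ± 0.08, edgeR adjusted p = 0.20). The number of lower genes in Zfp352-KO cells depended on single libraries. It was 1 without Parental library 1, 2 without Parental library 2, and 3 without Zfp352-KO library 1 or 2. Leaving out any other single library gave 5 to 7. In Zfp352/Zfp353-DKO cells it was 5 to 9 when any 1 library was left out and 3 in limma-trend on log2(TPM + 1).

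Most epithelial genes linked to GRHL2 fell, though not all passed. Of 18 genes, 11 fell and 1 rose in Zfp352-KO cells, and 11 fell and none rose in Zfp352/Zfp353-DKO cells. Of all genes tested, 3.64% and 4.82% were called lower in the same order. The list was chosen with earlier results of these data known, so its counts are descriptions and no test of the list. The median log2 fold changes of the 18 genes were -0.26 and -0.42, against -0.009 and 0.000 for all genes tested. The smallest adjusted p-values were those of the keratin genes Krt8, at -0.78 ± 0.07 (SE) with Zfp352 deleted and -1.0 ± 0.07 with both genes deleted, and Krt19, at -0.97 ± 0.08 and -1.06 ± 0.08. The tight junction gene Cldn6 was at -0.37 ± 0.06 and -0.55 ± 0.07 in the same order, and its relative Cldn7 at -0.57 ± 0.10 and -0.70 ± 0.11. Krt18, which pairs with Krt8, was at -0.57 ± 0.07 and -0.82 ± 0.07. The edgeR adjusted p-values of these 5 genes ran from 1.2e-08 to 0.0032. Smaller falls were seen in Esrp1, a splicing regulator of epithelial cells (-0.18 ± 0.05, edgeR adjusted p = 0.040, and -0.29 ± 0.05, edgeR adjusted p = 0.0013). The cell adhesion gene Cdh1 was called in Zfp352/Zfp353-DKO cells, at -0.15 ± 0.05 (edgeR adjusted p = 0.046). Summed TPM of the 18 genes was 828 to 869 in Zfp352-KO and 778 to 804 in Zfp352/Zfp353-DKO libraries, against 998 to 1070 in Parental libraries. In Zfp352-KO cells the gene that rose was Grhl3, and 7 fell without Parental library 1, 6 without Zfp352-KO library 2 and 7 in limma-trend.

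Naive pluripotency genes moved the other way in part. Of 17 genes, 4 rose and none fell in Zfp352-KO cells, and 6 rose and 1 fell in Zfp352/Zfp353-DKO cells. Of all genes tested, 3.43% and 3.65% were called higher in the same order. Without the trend in length and GC content 8 and 10 of the 17 rose. The naive transcription factor gene Tfcp2l1 was at 0.37 ± 0.06 (SE) in Zfp352-KO and at 0.37 ± 0.06 in Zfp352/Zfp353-DKO cells, and Tbx3 at 0.30 ± 0.05 in both. Tcl1, a cofactor of the kinase AKT, was at 0.23 ± 0.06 and 0.36 ± 0.06, and Tet2, which oxidises methylated cytosine, at 0.47 ± 0.08 and 0.46 ± 0.08. The edgeR adjusted p-values of these 4 genes ran from 0.00042 to 0.029. Dppa3 was the gene that fell in Zfp352/Zfp353-DKO cells, by 0.34 on the log2 scale (SE 0.06, edgeR adjusted p = 0.0012).

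Genes that receive or report FGF signals were called in both directions. Of 17 tested, 1 rose and 2 fell in Zfp352-KO cells, beside 7.06% of all genes called, and 3 rose and 2 fell in Zfp352/Zfp353-DKO cells, beside 8.47%, with median log2 fold changes of -0.03 and -0.09. Etv5, a transcription factor induced by ERK, was at -0.18 ± 0.04 (SE; edgeR adjusted p = 0.022) in Zfp352-KO and at -0.19 ± 0.04 (0.011) in Zfp352/Zfp353-DKO cells. The feedback inhibitor gene Spry1 was at -0.26 ± 0.08 (edgeR adjusted p = 0.045) in Zfp352-KO cells, and Spry4 at 0.23 ± 0.04 (0.0025) in Zfp352/Zfp353-DKO cells. Without Parental library 1 or 3 or Zfp352-KO library 1 or 2, and in limma-trend, no gene of this list was called in Zfp352-KO cells, and without Parental library 2 only 1 was. In Zfp352/Zfp353-DKO cells 1 rose and none fell without Zfp352/Zfp353-DKO library 2 and in limma-trend, 1 rose and 1 fell without Parental library 1 or 2, and 1 rose and 2 fell without Parental library 3 or Zfp352/Zfp353-DKO library 3. Etv1, another ERK-responsive factor, was higher in Zfp352-KO cells (0.39 ± 0.11, edgeR adjusted p = 0.040). In Zfp352/Zfp353-DKO cells the receptor gene Fgfr3 was lower (-1.03 ± 0.26, edgeR adjusted p = 0.018) and the ERK inhibitor gene Spred1 higher (0.25 ± 0.07, edgeR adjusted p = 0.034).

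**Figure D4:**
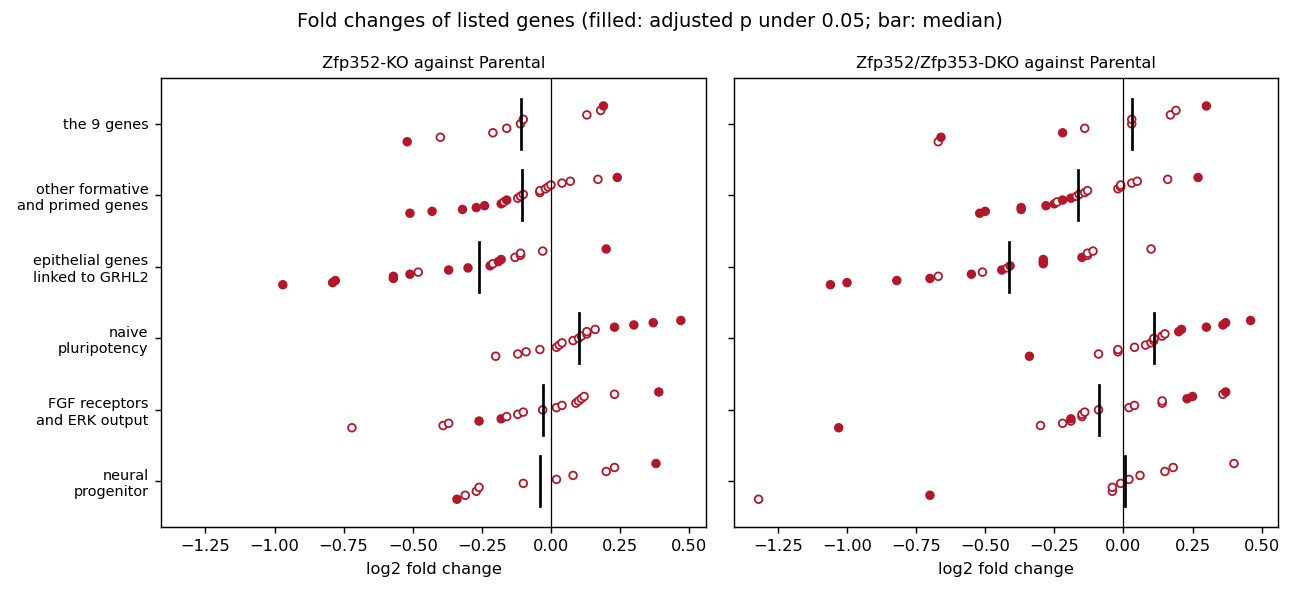
Log2 fold change (x axis, edgeR) of each tested gene in 6 lists (rows) against Parental cells, filled where the adjusted p was under 0.05, with a bar at each list's median. Of the 6 lists drawn, the epithelial list has the lowest median, -0.26 for Zfp352-KO and -0.42 for Zfp352/Zfp353-DKO cells. The naive list has medians to the right of 0, 0.10 and 0.11. Lists not drawn had lower medians, -0.46 and -0.79 for fibroblast-type and -1.22 and -1.26 for primitive streak markers, in the same order.

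Because Sox3, Sox4, Otx2, Zic2 and Zic5 are also transcribed in neural and other lineages, markers of such cells were read beside them. Of 16 neural progenitor markers, 10 were tested. The summed TPM of all 16 was 167 to 175 in Zfp352-KO, 168 to 174 in Zfp352/Zfp353-DKO and 173 to 179 in Parental libraries. Most of it was Tubb3, which averaged 127, 131 and 131 TPM in the same order. Nes, an intermediate filament gene of progenitors, fell by 0.34 in Zfp352-KO (SE 0.06) and by 0.70 in Zfp352/Zfp353-DKO cells (SE 0.06), and Ncam1 rose in Zfp352-KO cells (0.38 ± 0.10), at edgeR adjusted p-values from 7.6e-07 to 0.032. Ncam1 was not called without any 1 of the Parental libraries, without Zfp352-KO library 1 or 2, or after removal of the length and GC trend. In limma-trend neither Ncam1 nor Nes was called in Zfp352-KO cells. Nes was also lower in Zfp352/Zfp353-DKO than in Zfp352-KO cells (-0.37 ± 0.07, edgeR adjusted p = 0.032). Neural progenitor genes Hes3, Pax6 and Tubb3 did not pass. Neurog2 had at most 2 expected counts in any library and was at 0 in all Parental libraries. Of 8 neural crest markers 4 were tested and Ets1 was lower, at -0.46 ± 0.13 (edgeR adjusted p = 0.038) and -1.0 ± 0.14 (edgeR adjusted p = 1e-04) in the same order. In Zfp352-KO cells it was not called without any 1 of the Parental or Zfp352-KO libraries, without Zfp352/Zfp353-DKO library 2, or in limma-trend. For the neural crest list the summed TPM was 4.49 to 5.42, 4.46 to 4.95 and 4.84 to 6.15. Tfap2b had at most 1 expected count in any library and was at 0 in all Zfp352-KO libraries.

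Markers of other lineages were lower in the edited cells in several lists. Of all genes tested, 7.06% were called in Zfp352-KO cells (3.64% lower) and 8.47% in Zfp352/Zfp353-DKO cells (4.82% lower). Of 14 tested fibroblast-type markers 8 fell and 1, Fn1, rose in Zfp352-KO cells, and 8 fell in Zfp352/Zfp353-DKO cells. The summed TPM of the 16 listed was 552 to 610 in Zfp352-KO and 503 to 553 in Zfp352/Zfp353-DKO libraries, against 615 to 654 in Parental libraries. Fn1 alone averaged 314, 299 and 262 TPM in the same order. The collagen genes Col1a1 and Col1a2 were at -1.15 ± 0.09 and -0.65 ± 0.09 (SE) in Zfp352-KO and at -1.66 ± 0.09 and -1.27 ± 0.09 in Zfp352/Zfp353-DKO cells. Tagln, an actin-binding protein gene, was at -0.76 ± 0.07 and -1.25 ± 0.08 in that order. S100a6 was at -0.66 ± 0.08 and -0.77 ± 0.08, and Col5a1 at -0.49 ± 0.07 and -0.81 ± 0.07, in the same order. Col1a2 (-0.62 ± 0.10), Tagln (-0.49 ± 0.08) and Acta2 (-0.56 ± 0.10) were also lower in Zfp352/Zfp353-DKO than in Zfp352-KO cells. The fibroblast-type markers given with fold changes had edgeR adjusted p-values from 2e-09 to 0.034. Lum had at most 1 expected count in any library and was at 0 in all Zfp352-KO and all Parental libraries. Of 6 tested primitive streak markers 4 fell in Zfp352-KO cells and 3 fell in Zfp352/Zfp353-DKO cells, with T, the factor Brachyury, at -2.65 ± 0.31 and -3.09 ± 0.33 (SE). Sp5 was at -1.54 ± 0.28 and -1.79 ± 0.29, Cdx2 at -1.27 ± 0.25 and -1.69 ± 0.27, and Wnt3 at -1.16 ± 0.28 in Zfp352-KO cells, where 2 markers fell without Parental library 1. For the primitive streak list the summed TPM was 6.41 to 8.55 and 6.50 to 7.27, against 11.8 to 17.7 in Parental libraries. Of 12 primitive endoderm markers 2 fell in Zfp352-KO cells, and 3 fell and 1 rose in Zfp352/Zfp353-DKO cells, with summed TPM of 187 to 206 and 176 to 192, against 221 to 229. Of these, Col4a1 was at -0.50 ± 0.08 and -0.49 ± 0.08 and Sparc at -0.32 ± 0.05 and -0.46 ± 0.05, while Lamb1 (-0.19 ± 0.05) and Lama1 (0.37 ± 0.07) were called in Zfp352/Zfp353-DKO cells. Of 8 tested trophectoderm markers 2 fell in either genotype, Cdx2 and Hand1 (-0.70 ± 0.12 in both). In Zfp352-KO cells 1 fell without Parental library 1. The summed TPM of the 10 listed was 89.6 to 95.3 and 87.9 to 99.5, against 92.2 to 99.1. Most of it was Tfap2c, which averaged 64.2 and 64.6, against 62.1 TPM. The primitive streak, primitive endoderm and trophectoderm markers given with fold changes had edgeR adjusted p-values from 2.5e-06 to 0.038. The part of these markers in the values of Pou3f1, Zic2 and Grhl2 was not tested.

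The genes whose values followed a called member most closely were found by the root mean square difference of log2 CPM, less each gene's mean, over the 9 libraries. For Pou3f1 they were Psors1c2 (difference 0.0342), the calpain protease gene Capn2 (0.0704) and the matricellular gene Ctgf (0.0784), while Pou3f1 itself varied by 0.292 about its mean. Psors1c2 was at -0.52 ± 0.11 (SE; edgeR adjusted p = 0.0080) in Zfp352-KO and at -0.71 ± 0.11 (0.00048) in Zfp352/Zfp353-DKO cells. For Zic2, which varied by 0.134, they were the endoglin gene Eng (0.0428), Ikbkb (0.0518) and Prdm1 (0.0538). For Grhl2, which varied by 0.103, they were Map4k1 (0.0390), Anapc16 (0.0390) and Zfand3 (0.0420). Genes that vary little have many such neighbours among 14300, so the differences for Zic2 and Grhl2 describe closeness in size as much as in pattern.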

How the data were processed

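Build mm10 and the tools RSEM 1.3.3, STAR 2.7.8a and Trim Galore 0.6.6 are named per the submitters' processing notes. Neither their settings nor any use of strand is given in the sources used here. The deposited tables hold, per the file headers, an expected count for each gene (9.27% of values not whole, tolerance 0.005). The authors' TPM, in the deposited tables, was used for levels, and the deposited FPKM was not used. Expected counts were rounded and tested in edgeR 4.0.16 (R 4.3.3; TMM, filterByExpr, quasi-likelihood F test, two-sided). The 9 libraries entered 1 fit by genotype with 6 residual degrees of freedom, and Benjamini-Hochberg adjustment over 14300 genes. SEs and 95% intervals came from the F statistic. No library repeated another of its genotype within sampling noise (chi-square per degree of freedom 2.44 to 6.68). Sequences and GC content came from GENCODE transcripts of GRCm38 and positions from RefSeq genes of GRCm38.p6. The trend fit removed, in each library, a local regression (span 0.3) on length and GC content. The alternatives were other scalings and filters, DESeq2 1.42.0, limma-trend (limma 3.58.1), fits of the 6 libraries compared, a replicate block and the omission of each library. The members, the gene lists and the tests were chosen with earlier results of these data known. Counts of called genes in a list, beside the share of all genes, are therefore descriptions. Named are all members, up to 4 called genes with the smallest adjusted p from a list in a comparison, and the 3 genes most like each called member. Cldn7, Esrp1, Cdh1, Fn1, Pou3f2, Pou3f3, Pou3f4, 2610035F20Rik, Otx2os1 and the markers that did not pass were added after their values were seen. The values of 1 listed gene are not reported here.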

Additional observations from a re-analysis of the deposited data

How the results depend on the processing

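For Zfp352-KO against Parental cells 2 of the 9 genes were called, and 1 was with library totals only as scaling, with the replicate number as a block, and at an adjusted p under 0.01. Leaving out 1 library gave 1 to 2. In each of these settings Pou3f1 was called. Between Zfp352/Zfp353-DKO and Parental cells 3 were called, and 2 were in DESeq2 and in limma-trend on log2(TPM + 1). The number was within 1.5 times 3 in all 22 settings, and between the edited genotypes it was 0 in all 22. No call of the 9 genes reversed. Whether the labels' replicate numbers pair the libraries was not settled. Deviations of same-numbered libraries correlated from -0.0767 to 0.106. In the 3 comparisons 2, 4 and 2 of 6 libraries correlated best with their own number. The 4 were those of Zfp352/Zfp353-DKO against Parental, where correlations ran from 0.0218 to 0.106. With the replicate block, 569 genes in place of 1010 were called between Zfp352-KO and Parental, 867 in place of 1211 between Zfp352/Zfp353-DKO and Parental, and 11 in place of 15 between the edited genotypes. Counts over all genes moved more than 1.5 times in other settings too. Between Zfp352-KO and Parental they were 359 in limma-trend on log2(TPM + 1), 257 at an adjusted p under 0.01, 210 without Parental library 1 and 1552 without Zfp352/Zfp353-DKO library 3, and between Zfp352/Zfp353-DKO and Parental 578, 467, 449 and 686 in the same settings. Between the edited genotypes they ran from 1 to 66. The causes were not tested. Scalings moved the median log2 fold change of all genes by less than 0.1. Depth limits Fgf5 and Sox3, with at most 73 counts in any library.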

Other observations

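The tables give each gene a transcript length averaged over its isoforms by their estimated share. For Otx2, with 4 listed transcripts, it ran from 2191.43 to 2209.36 bases over the 9 libraries. For Fgf5, with 2 listed transcripts, it ran from 2437.27 to 2504 bases. Otx2os1, the noncoding gene beside Otx2 on the other strand, had at most 4 expected counts in any library and did not pass the filter on low counts.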
